A study of Mus musculus with 3 samples.

Results

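The 10 genes studied are used to tell apart the alpha and gamma classes of spinal motor neurons, and they were read in single-nucleus RNA-seq of mouse lumbar spinal cord. They were taken by symbol from the 31040 genes of the count table and all 10 were found. Esrrg, Esrrb and Gfra1 are counted here as gamma markers, Chodl, Mmp9, Spp1, Sv2b, Stk32a and Rbfox3 as alpha markers, and Isl1 as a marker of motor neurons as a whole. The main population is the 67 nuclei that the authors annotated as motor neurons, out of 14662 nuclei.

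The nuclei came from 12 mice aged 90 days, which were hashtagged and run in 3 pools, named A to C. In a pool each genotype was present as 1 female and 1 male. The controls (WT) were C57BL/6J littermates, and the transgenic mice (SOD1G93A) were of the line B6.Cg-Tg(SOD1*G93A)1Gur/J. This line carries a mutant human SOD1 gene at high copy number and is a model of amyotrophic lateral sclerosis. The mouse is the replicate, with 6 mice per genotype and 3 per genotype and sex. WT mice gave 44 motor neuron nuclei among 8841 nuclei of all types and SOD1G93A mice 23 among 5821. Each mouse gave between 1 and 11 motor neuron nuclei. Female SOD1G93A mice had 2, 4 and 1 such nuclei in pools A, B and C. The authors reported that no cell type differed significantly in abundance between the genotypes. The summed motor neuron UMIs (unique molecular identifiers, counts of captured RNA molecules) ran from 27658 to 651446 per mouse. The median motor neuron nucleus had 43895 UMIs in WT and 60146 in SOD1G93A mice. Levels are counts per 1000000 UMIs of the same mouse and cell type (CPM), and they are compared for 1 gene at a time. In sums per mouse, fewer nuclei of one class and less RNA per nucleus cannot be told apart.

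Alpha motor neurons drive the force-producing fibres of skeletal muscle, whereas gamma motor neurons set the tension of the fibres inside muscle spindles, the stretch sensors. Esrrg and Esrrb encode estrogen-related receptors, orphan nuclear receptors that act as transcription factors, and Gfra1 encodes a co-receptor for the growth factor GDNF. Rbfox3 encodes the splicing regulator known as NeuN, which is low in gamma motor neurons. Mmp9 encodes a secreted protease found in fast alpha motor neurons, the class lost early in this disease model, Spp1 encodes osteopontin, Chodl a membrane lectin, Sv2b a synaptic vesicle protein and Stk32a a kinase. Isl1 encodes a LIM homeodomain transcription factor of motor neuron development.

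In the mm10 assembly (GRCm38) with GENCODE vM21 annotation, Esrrg lies on chromosome 1 (187608791 to 188214885, plus strand) and Esrrb on chromosome 12 (86361117 to 86521628, plus strand). Gfra1 lies on chromosome 19 (58235604 to 58455909, minus strand) and Mmp9 on chromosome 2 (164940780 to 164955850, plus strand). Spp1 lies on chromosome 5 (104435118 to 104441050, plus strand) and Rbfox3 on chromosome 11 (118489762 to 118911597, minus strand). Stk32a lies on chromosome 18 (43207583 to 43318682, plus strand) and Isl1 on chromosome 13 (116298281 to 116309689, minus strand).

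The annotated motor neurons carried the markers of the cell type. The summed level of 5 motor neuron markers was 1609.7 ± 460 CPM (SD, n = 12 mice), with Slc18a3 at 0 in all mice. The oligodendrocyte marker list (4 genes) summed to between 52.6 and 745 CPM in motor neurons of WT mice, with a median of 189. In SOD1G93A mice it summed to between 85.8 and 575, with a median of 474. The part of these transcripts in the results below was not tested, except for a fit without the 13 motor neuron nuclei that held over 5 such UMIs per 10000. The excitatory and inhibitory neuron markers in motor neurons had medians of 4.47 and 6.55 CPM in WT and 9.07 and 31.6 CPM in SOD1G93A mice, and their part was not tested. Of the motor neuron nuclei, 66 fell in Seurat cluster 49 and 1 in another cluster. Between pools, 15 cell barcodes occurred more than once.

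The 10 genes differed in how far they were limited to motor neurons. Cell types were named by the authors from clusters of all genes, so these levels, means over mice of both genotypes unless stated, are a description with no test. Gfra1 stood at 434.8 ± 177 CPM in motor neurons (SD, n = 12) and at 148 in the next type, oligodendrocyte precursors, and Sv2b at 307 ± 96.1 against 136 in Schwann and meningeal nuclei. For these 2 genes the mean minus 1 SD in motor neurons lay above the mean plus 1 SD of the next type, although single mice overlapped. For Gfra1 this did not hold against types of lower mean but wider spread, ependymal (141.5 ± 146) and Schwann and meningeal nuclei (138 ± 183). In SOD1G93A mice alone it held for neither gene against Schwann and meningeal nuclei. There Gfra1 stood at 473 ± 217 in motor neurons against 201 ± 248, and Sv2b at 250 ± 77.6 against 138 ± 54.8 (SD, n = 6). Esrrb (26.0 ± 40.6), Chodl (93.1 ± 56.9) and Isl1 (16.7 ± 10.1) also had their highest mean in motor neurons, but their spread overlapped that of the next type. The mean of Esrrb leaned on 1 WT mouse at 148, and in SOD1G93A mice it was 7.44 in motor neurons against 8.55 in oligodendrocyte precursors. Esrrg was not limited to motor neurons. Its mean was 865 in ependymal nuclei, 692 in astrocytes, 648 ± 227 in motor neurons and 567 in the other neurons, and neighbours in this order overlapped. The order held in neither genotype alone. In WT mice astrocytes stood at 788, ependymal nuclei at 615, motor neurons at 587 and the other neurons at 586. In SOD1G93A mice ependymal nuclei stood at 1074, motor neurons at 709, astrocytes at 597 and the other neurons at 548. The difference between genotypes in ependymal nuclei, of 96 and 86 Esrrg UMIs in all, did not pass (log2 fold change 0.99, adjusted p = 0.32, limma-voom). Stk32a was highest in astrocytes, at 473 against 271 ± 69.9 in motor neurons, and Rbfox3 was highest in the other neurons, at 354 against 289 ± 95.5. Spp1 was highest in Schwann and meningeal nuclei, at 359 against 112 ± 243 in motor neurons, and Mmp9 likewise at 16.7 against 3.47 ± 4.61. This class also held markers of other cells. Its 3 neuron markers summed to 3523 CPM against 1208 in the other neurons, its motor neuron markers to 477 against 98.5 and its oligodendrocyte markers to 5339, beside 126 for the 3 Schwann cell markers. The part of these transcripts in its Spp1, Mmp9, Sv2b and Chodl levels was not tested. Mmp9 stood there at 28.4 ± 21.6 in WT and 4.98 ± 3.33 in SOD1G93A mice (SD, n = 6), on 15 and 11 UMIs in all, which was too few for the test. In motor neurons Mmp9 rested on 14 UMIs.

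**Figure D1:**
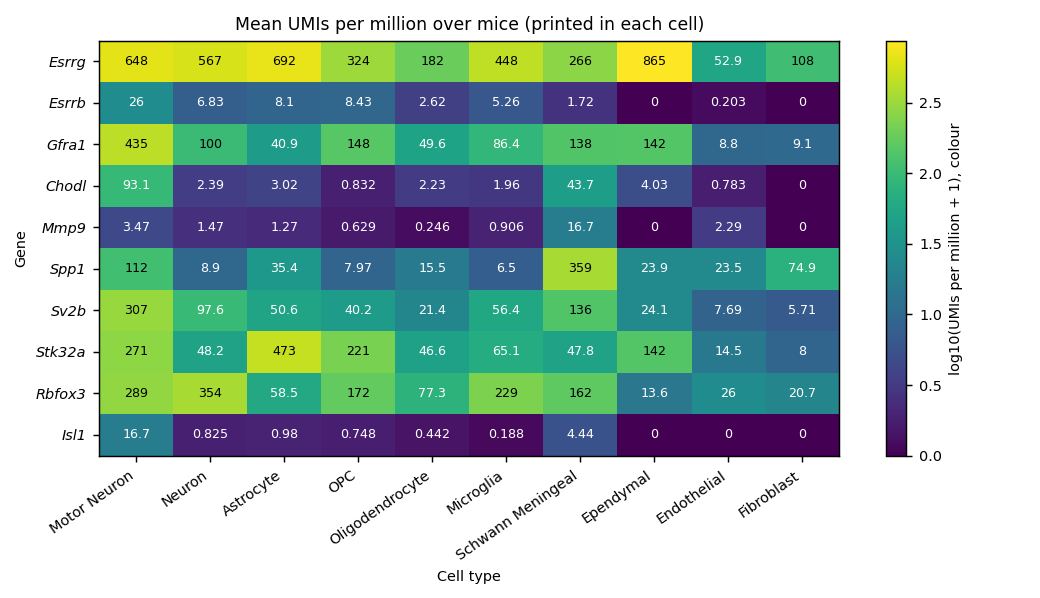
Mean CPM over mice of both genotypes for the 10 genes (rows) in each of 10 cell types (columns), with the mean printed in each cell and log10(mean + 1) as the colour. Gfra1, Sv2b, Chodl, Esrrb and Isl1 have their highest mean in motor neurons, whereas Esrrg, Stk32a, Spp1, Mmp9 and Rbfox3 have theirs in another type.

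Among the 9 neuron sub-types of the authors, motor neurons left out, Esrrg was highest in the sub-type labelled VI (1376 ± 136 CPM, n = 12), followed by VE (965 ± 88.6), and both lay above the mean of motor neurons. Esrrb was also highest in VI (20.6 ± 8.88), under its motor neuron mean of 26.0. By the median the order was the other way, at 21.4 in VI and 12.5 in motor neurons. Chodl (6.17 ± 7.20) and Isl1 (4.94 ± 5.93) were highest in VC, under their motor neuron means. For Isl1 1 mouse reached 18.4 in VC, above its motor neuron mean. Sv2b was highest in VI (174 ± 41.0), then in VE (161 ± 13.7), and Gfra1 in VM (163 ± 71.5). These means lay under those of motor neurons (307 ± 96.1 and 434.8 ± 177) but above those of the next cell type given before. The mean plus 1 SD of Sv2b in VI reached above its motor neuron mean minus 1 SD.

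The comparison of genotypes asked whether these markers changed in motor neurons at this age. Sv2b fell in SOD1G93A motor neurons, and it was the 1 member to pass the threshold of a false discovery rate (FDR) under 0.1. Sv2b ranged from 253 to 473 CPM in WT mice, with a median of 374. In SOD1G93A mice it ranged from 157 to 358, with a median of 231. The ranges overlapped, but Sv2b was lower in the SOD1G93A mouse in 6 of 6 pairs of the same sex and pool. The closest pairs were the males of pool A (243 against 253) and the females of pool C (325, on 9 UMIs, against 346). Its log2 fold change was -0.78 (SE 0.19, adjusted p = 0.0497, limma-voom). Of the 5118 genes tested in motor neurons 157 passed, a background of 3.07%, against 1 of the 7 members that reached the test. Esrrb, Mmp9 and Isl1 had too few UMIs to be tested.

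The Sv2b call was not stable. The direction was the same in all 23 alternative settings, from -1.04 to -0.59 on the log2 scale, but the FDR ranged from 0.0156 to 0.193. The call was lost with the edgeR quasi-likelihood test (FDR 0.103) and without the pool term (0.119), and without any 1 of 5 mice. These were the female SOD1G93A mice of pool A (0.101) and pool B (0.131), the male SOD1G93A mouse of pool C (0.156) and the WT mice of pool C, female (0.113) and male (0.117). It was also lost without the 3 nuclei of the mice with fewer than 3 motor neuron nuclei (0.168), without the nucleus richest in Spp1 (0.161) and without the nucleus outside cluster 49 (0.193).

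**Figure D2:**
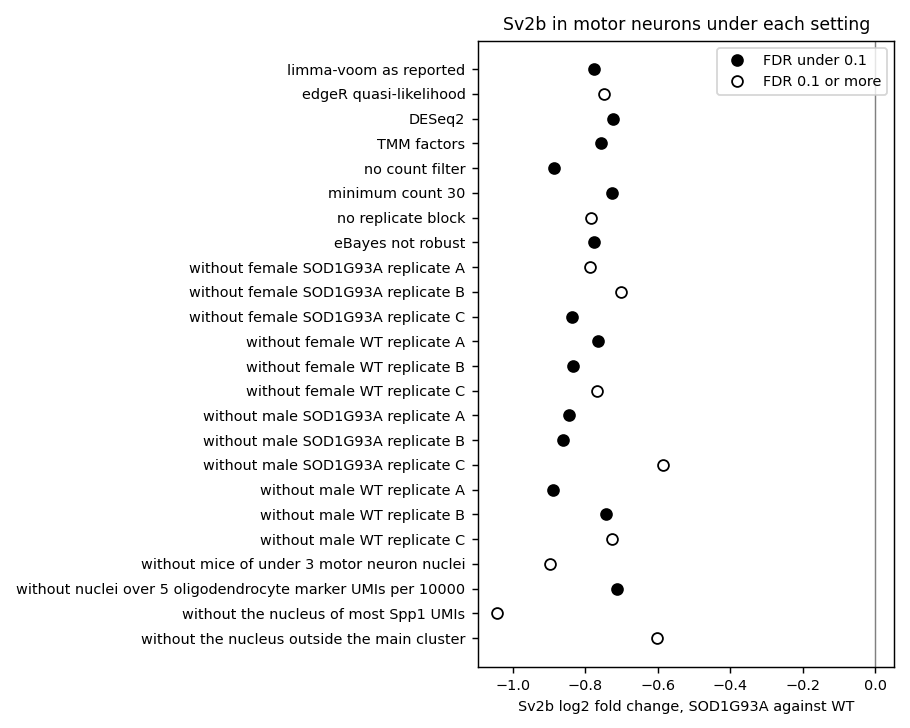
Log2 fold change of Sv2b in motor neurons, SOD1G93A against WT (x axis), for the reported fit and each alternative (y axis). Filled points have an FDR under 0.1 and open points do not, and every point lies between -1.04 and -0.59.

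Chodl was lower in SOD1G93A motor neurons without passing the test. It ranged from 58.6 to 180 CPM in WT mice, with a median of 136. In SOD1G93A mice it ranged from 0 to 107, with a median of 55.5. It was lower in the 5 pairs whose order could be read, while the SOD1G93A female in pool C held 1 Chodl UMI, and 3 UMIs there would be 108 CPM. The log2 fold change was -1.09 (adjusted p = 0.353, limma-voom). The FDR was 0.0836 with DESeq2, 0.00273 with no filter on low counts, where the median log2 fold change over all genes was 0.31, and 0.0347 without the 13 nuclei rich in oligodendrocyte markers. Chodl passed in these 3 of 23 alternatives. With each mouse left out in turn the FDR ran from 0.253 to 0.528 and the log2 fold change from -2.40, without the SOD1G93A female in pool B, to -0.85. Rbfox3 was likewise lower in 6 of 6 pairs, but some pairs were nearly level. SOD1G93A and WT females of pool C stood at 361.6 (10 UMIs) and 362.8, and the males of pool B at 310.0 and 311.6. Its median was 314 in WT and 259 in SOD1G93A mice, with a log2 fold change of -0.46 (adjusted p = 0.321, limma-voom). Stk32a differed little, with medians of 260 and 277 and a log2 fold change of -0.09 (adjusted p = 0.854, limma-voom).

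Spp1 had the largest fitted difference of the members and the largest spread. In WT mice it ranged from 0 to 107 CPM, with a median of 14.5, and in SOD1G93A mice from 0 to 870, with a median of 68.4. The log2 fold change was 2.49 (SE 0.89, adjusted p = 0.242, limma-voom). The mouse at 870 was the SOD1G93A female in pool A, and all 161 of its Spp1 UMIs came from 1 of its 2 motor neuron nuclei. Without that nucleus the log2 fold change was 1.16 (adjusted p = 0.696, limma-voom), and without the robust option of eBayes Spp1 passed (adjusted p = 0.0628, limma-voom). That nucleus also held 109 UMIs of Calca, the gene of the neuropeptide CGRP. The highest WT mouse, the male of pool B, had a nucleus with 46 Spp1 and 128 Calca UMIs, and without this mouse the FDR of Spp1 was 6.86e-05. The genotype effect on Spp1 was 4.30 on the log2 scale in females and 0.69 in males, a difference that did not pass (adjusted p = 0.978, limma-voom).

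The gamma markers showed no difference that passed. Esrrg ranged from 117 to 914 CPM in WT mice, with a median of 633, and from 380 to 893 in SOD1G93A mice, with a median of 764. Its log2 fold change was 0.24 (SE 0.27, adjusted p = 0.738, limma-voom). Gfra1 had medians of 377 and 463 and a log2 fold change of 0.23 (adjusted p = 0.772, limma-voom). Both genes turned to slightly negative values when the female WT mouse of pool B was left out. Esrrb, with 80 UMIs over WT and 13 over SOD1G93A motor neurons, was lower in SOD1G93A mice in the 4 pairs whose order could be read at a floor of 3 UMIs per mouse. Both pairs of pool C fell under it, with 0 UMIs of 27658 in the SOD1G93A female and 1 against 2 UMIs in the males. Its median was 24.5 CPM in WT and 8.24 in SOD1G93A mice, and it was not tested in the reported fit. With no filter on low counts its log2 fold change was -1.78 (adjusted p = 0.00858, limma-voom), beside a median of 0.31 over all genes. In the 10 fits without 1 mouse in which it reached the test, the FDR ran from 0.0243 to 0.421 and passed in 2, without the WT female in pool B and without the WT male in pool A. Esrrb did not reach the test without the WT female in pool A, its highest mouse at 148 CPM, or without the WT female in pool C. The FDR was 0.712 without the mice of fewer than 3 motor neuron nuclei. Isl1 had medians of 12.1 and 23.4, and Mmp9 of 2.48 and 1.20, on 63 and 14 UMIs in all.

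**Figure D3:**
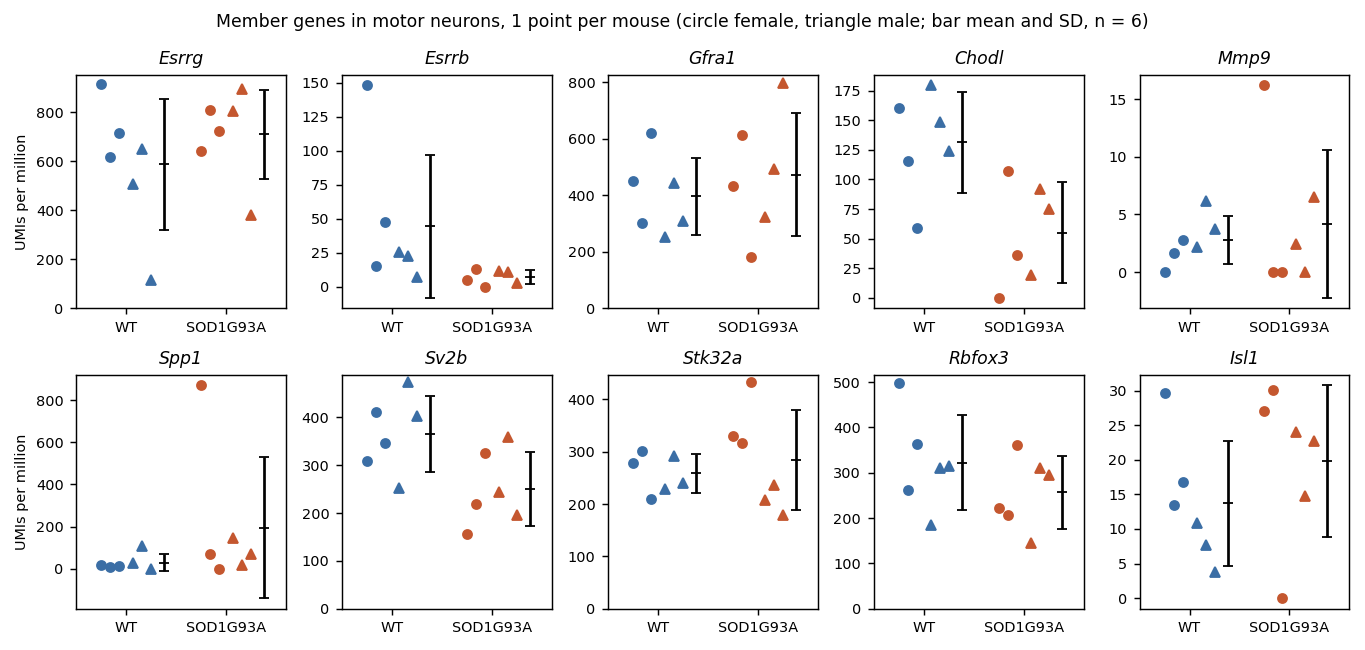
CPM in motor neurons (y axes, each gene on its own scale) for each mouse by genotype (x axis), with circles for females, triangles for males and bars for the mean and SD over 6 mice. Sv2b and Rbfox3 sit lower in SOD1G93A mice in 6 of 6 pairs, by little in some of them. In the Spp1 panel 1 SOD1G93A mouse sets the height at 870.

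Neither sex nor its interplay with genotype gave a call among the members. Between females and males 6 of 5118 genes passed (0.117%), none of the 7 members. The genotype effect differed between males and females for 3 genes (0.0586%), again no member. Stk32a came nearest, with a log2 effect of 0.27 in females and -0.45 in males (adjusted p of the difference = 0.954, limma-voom).

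Single motor neuron nuclei differed in their balance of gamma and alpha markers. The gamma share, the gamma marker UMIs as a percent of gamma and alpha marker UMIs, averaged 46.7% ± 10.3 for the WT mice and 53.7% ± 9.08 for those with the transgene (SD, n = 6), on summed UMIs. It ranged from 28.5% to 58.3% in WT and from 40.4% to 61.0% in SOD1G93A mice, so the groups overlapped. No test was run on this score. Every nucleus held at least 10 marker UMIs, and the gamma share was above 50% in 20 of 44 WT nuclei and 14 of 23 SOD1G93A nuclei. The share lay between 40% and 60% in 23 of the 67 nuclei, near the split. Whether the nuclei form separate classes was not tested.

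At the gamma end, 13 of the 67 nuclei held at most 1 Sv2b UMI, 8 of 44 in WT and 5 of 23 in SOD1G93A mice. This limit is a raw count not scaled to depth, and the part of depth in it was not tested. A female WT nucleus of pool A with 19086 UMIs had 40 Esrrg and 12 Gfra1 UMIs and none of Sv2b, Stk32a, Rbfox3 or Chodl. The same nucleus held 13.6 oligodendrocyte marker UMIs per 10000, over the limit of 5 used above. A female SOD1G93A nucleus of pool B had 114 Esrrg and 22 Gfra1 UMIs against 1 Sv2b and 1 Rbfox3 UMI. Of these 13 nuclei 9 carried Htr1d, a serotonin receptor gene used as a gamma marker, against 11 of all 67. At the other end, 7 nuclei had under 1 Esrrg UMI per 10000, and all 7 held Chodl UMIs, against 41 of all 67. Of the 7, 6 came from WT and 1 from SOD1G93A mice. Low Esrrg did not mean low Gfra1. Among the 7, a female WT nucleus of pool C held 89 Gfra1 UMIs and a female SOD1G93A nucleus of pool B held 65, with gamma shares of 37.5% and 38.6%. A male WT nucleus of pool A had 1 Esrrg and 71 Chodl UMIs, and a male WT nucleus of pool B had 3 and 34. These limits were chosen after the values had been seen.

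**Figure D4:**
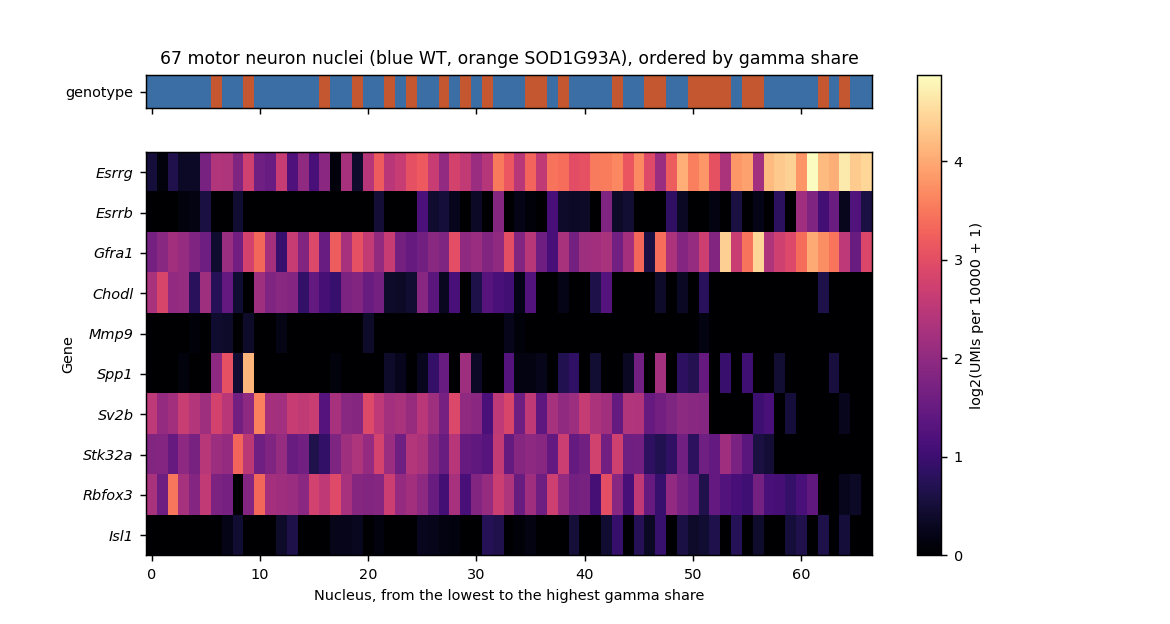
The 67 motor neuron nuclei from the lowest to the highest gamma share (x axis), with log2(UMIs per 10000 + 1) of the 10 genes (y axis) as the colour and the genotype in the strip above. Esrrg brightens to the right, while Chodl, Sv2b, Stk32a and Rbfox3 darken, and nuclei of both genotypes lie at the right end. The gamma share is computed from these same genes, so their trend follows from the ordering.

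Across the 67 nuclei, Esrrg and Chodl had a Pearson r of -0.65 (Spearman -0.63) on the scale of log2(UMIs per 10000 + 1), and -0.66 after the mean of each mouse was taken off. Sv2b went with Rbfox3 (r = 0.67), Stk32a (0.62) and Chodl (0.56). These links were weaker in SOD1G93A than in WT nuclei. For Esrrg and Chodl r was -0.71 in WT and -0.44 in SOD1G93A nuclei. For Sv2b it was 0.70 and 0.53 with Rbfox3, 0.71 and 0.49 with Stk32a, and 0.60 and 0.31 with Chodl. Other members followed their label only in part. Esrrg had an r of 0.46 with Esrrb but of 0.14 with Gfra1, its fellow gamma marker, and of 0.05 with Spp1 and -0.05 with Mmp9. The alpha markers Spp1 and Chodl had an r of -0.20, and Spp1 and Mmp9 of 0.58 (Spearman 0.28). Gfra1 had an r of -0.35 with Sv2b and with Stk32a. Some pairs had a stronger r in SOD1G93A nuclei, such as Gfra1 and Sv2b (-0.29 in WT and -0.47) and Spp1 and Mmp9 (0.50 in WT and 0.69). The nuclei share mice and libraries, and depth moved with some members. Against log2 of the UMIs per nucleus all 3 gamma markers had a negative r, at -0.31 for Esrrg, -0.34 for Esrrb and -0.30 for Gfra1. The alpha markers had a positive r, from 0.07 for Rbfox3 and 0.10 for Chodl to 0.31 for Sv2b and 0.38 for Stk32a, and the part of depth in the gamma share was not tested. Among 9239 genes with a UMI in at least 20 motor neuron nuclei, those most like Esrrg were Dlgap1 (r = 0.81), March11 (0.71) and Shisa6 (0.68). Those most like Chodl were Mctp1 (0.81), Rspo2 (0.77) and Gm28928 (0.75). Those most like Sv2b were Cntn5 (0.82), Cacna2d3 (0.79) and Camk1d (0.77), and those most like Rbfox3 were Csgalnact1 (0.78), Ano3 (0.75) and Cacna2d3 (0.70). Spp1 was most like Clu (0.81), Vgf (0.77) and Calca (0.76). For the other members r was lower at the top of the list. Gfra1 was most like Trio (0.54), Plxna4 (0.51) and Dab1 (0.50), Stk32a like Ptprd (0.65), Gm14697 (0.62) and Sv2b (0.62), Esrrb like Ramp1 (0.56), Frmd4a (0.56) and Xrcc5 (0.53), and Isl1 like Sirt1 (0.55), Zcchc18 (0.53) and Nemp2 (0.50).

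**Figure D5:**
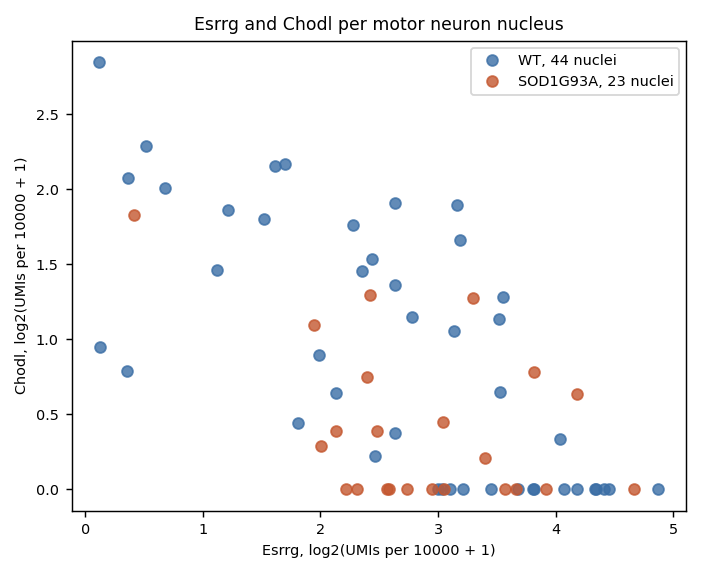
Esrrg (x axis) and Chodl (y axis) as log2(UMIs per 10000 + 1) in each of 67 motor neuron nuclei, coloured by genotype. Nuclei high in Chodl lie at low Esrrg and nuclei high in Esrrg hold little Chodl, with a Pearson r of -0.65.

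Most gamma companion genes, which took no part in the split, were higher in nuclei of high gamma share. Their summed level (9 genes) was 1123.4 CPM in the 34 nuclei above a share of 50% and 573 in the other 33, and higher above the split in 9 of the 10 mice with nuclei on both sides. Htr1d had 31 UMIs above and 1 below, the transcription factor gene Npas1 had 15 and 2, and Stxbp6 was higher above the split in 10 of 10 mice. Nrp2 went the other way, at 78.8 against 120 CPM. The alpha companions (5 genes) summed to 206 above and 367 below the split and were lower above it in 7 of 10 mice. This rested on 2 nuclei below the split, which held 128 and 109 Calca UMIs. Without these nuclei, all their UMIs left out, the sums were 206 above and 201 below, lower above the split in 5 of 9 mice. The nucleus of 109 had 161 Spp1 UMIs, without which its gamma markers (114 UMIs) would outnumber its alpha markers (104). Among them Sv2a went the other way, at 21.1 CPM above and 6.55 below and higher above the split in 8 of 10 mice, and Vipr2 stood at 45.5 and 44.9. The visceral motor neuron list (3 genes) was also higher above the split, at 186 against 61.3 CPM and in 7 of 10 mice, most of it Zeb2 at 159 against 54.2. Of the 13 nuclei rich in oligodendrocyte markers 10 lay above the split, and they held 266 of its 286 Zeb2 UMIs. Without the 13 nuclei, left out after seeing the data as were the 2 of most Calca, the visceral list stood at 29.0 above and 41.5 below the split, and the gamma companions at 1199 and 582. The genes of motor neuron identity did not separate the sides, at 1859 and 1953.

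By genotype, none of the tested companion genes in motor neurons passed. This held for the 6 of 9 gamma companions that were tested, with a median log2 fold change of -0.36 beside 0 over all genes and values from Pard3b at -1.14 to Htr1f at 0.17. It held for the 4 tested of 5 alpha companions (median 0.55), with Nefh at 0.59, Calcb at 0.52 and Calca at 1.21 and with Vipr2 the other way at -1.12 (adjusted p = 0.169, limma-voom). It also held for the 6 tested of 9 identity genes (median 0.27), with Slc5a7, the choline transporter gene, at 0.72 (adjusted p = 0.113, limma-voom), Prph at 0.54, Slit3 at 0.01, Chat at -0.12 and Tns1 at -0.70. In the families of the members, Nrip1, a cofactor of nuclear receptors, stood at -0.14, Ret, an identity gene and the signalling receptor partner of Gfra1, at 0.78 (adjusted p = 0.156, limma-voom), Sv2c at -0.07, Rbfox1 at -0.36 and Rbfox2 at -0.09. Ppargc1a and Ppargc1b, coactivators of estrogen-related receptors, stood at 0.29 and 0.39. The 4 tested osteopontin receptors had a median of -0.07, with Itgb1 at 0.42, Itga9 at 0.21, Itgav at -0.40 and Itgb5 at -0.35. In the remaining lists 1 gene each was tested, with Zeb2 at 0.74, Stk32c at -0.61, Timp3 at 0.07 and Lhx4 at -0.78, and none of the 3 genes listed for cholinergic and Renshaw interneurons reached the test.

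Chodl and Sv2b, which moved together across nuclei (r = 0.60 in WT and 0.31 in SOD1G93A nuclei), are shown by the 250 bases before an annotated start, from RefSeq (GRCm38.p6). The Chodl window is chr16:78930698-78930947 on the plus strand and the Sv2b window, 1 of 4 annotated starts, is chr7:75309263-75309512 on the minus strand. Capitals mark the match to TATATAA, the core of a promoter element found near many regulated starts.
Chodl: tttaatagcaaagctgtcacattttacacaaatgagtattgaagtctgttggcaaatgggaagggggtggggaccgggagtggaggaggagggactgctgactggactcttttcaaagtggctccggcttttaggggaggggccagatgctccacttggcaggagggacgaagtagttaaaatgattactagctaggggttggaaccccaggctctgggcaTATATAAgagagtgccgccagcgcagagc
Sv2b: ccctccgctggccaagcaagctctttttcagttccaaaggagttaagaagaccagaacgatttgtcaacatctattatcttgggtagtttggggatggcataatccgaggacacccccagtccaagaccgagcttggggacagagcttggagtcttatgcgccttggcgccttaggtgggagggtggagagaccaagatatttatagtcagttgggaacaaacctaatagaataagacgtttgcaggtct
Over both strands, TATATAA occurred in 3.04% of 32851 such windows. Windows were at hand for 8 of the 10 genes, 16 in all, and 1 of these, at Chodl, held it. AAGGTCA, the half-site of estrogen-related receptors, was in none of these 16 and in 4.08% of all windows. TAATTA, a LIM homeodomain core, was in 1 of the 16, at Spp1, and in 4.84% of all.

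Outside motor neurons 1 member passed for the genotype effect averaged over the sexes. In astrocytes Esrrg fell, from a median of 795 CPM in WT mice (608 to 972) to 626 in SOD1G93A mice (394 to 739), and was lower in 6 of 6 pairs. The log2 fold change was -0.48 (SE 0.13, adjusted p = 0.0738, limma-voom), where 2.29% of the 9347 tested genes passed and 1 of 7 members did. The call was lost without the pool term (FDR 0.136). Spp1 passed in astrocytes of males alone, at 1.21 on the log2 scale (adjusted p = 0.095, limma-voom), where 0.246% of genes passed. It stood at 0.13 in females, and the difference between the sexes did not pass (adjusted p = 1, limma-voom). Stk32a, at -0.53, did not pass in astrocytes (adjusted p = 0.152, limma-voom). Sv2b was at 0.56 (adjusted p = 0.132, limma-voom) and Rbfox3 at 0.53 (adjusted p = 0.228, limma-voom) on the log2 scale. The 3 neuron markers also moved in astrocyte nuclei, from a median of 371 CPM in WT (307 to 594) to 560 in SOD1G93A mice (372 to 1049), and their part in these values was not tested.

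In the other neurons 0.0255% of genes and none of the 10 members passed by limma-voom. Isl1 stood nearest, with 110 UMIs over WT and 31 over SOD1G93A mice and a log2 fold change of -0.89 (adjusted p = 0.819, limma-voom). Over the 9 neuron sub-types 0.0252% of 75459 tests passed, and of 52 limma-voom tests of members none passed and 5 (9.62%) had an unadjusted p under 0.05, against 4.54% of all tests there. The 52 tests repeat the same genes in the same mice and are not independent, so the 2 shares cannot be compared as a result. An unadjusted p under 0.05 was also found for 6 of 7 members and 1270 of 9347 genes in astrocytes, and for 2 of 7 and 815 of 5118 in motor neurons (limma-voom). In Schwann and meningeal nuclei (0.036% of genes) Chodl had a median of 62.0 CPM in WT and 25.7 in SOD1G93A mice, with a log2 fold change of -1.44 that missed the threshold (adjusted p = 0.108, limma-voom). The neuron markers in this class had medians of 3725 CPM in WT and 3686 in SOD1G93A mice and the motor neuron markers of 427 and 421, and their part in the Chodl level was not tested. Its FDR was 0.751 with edgeR, 1 with DESeq2 and 0.998 without the pool term. In the remaining types no member passed. The share of all genes that passed there was 0.0759% in microglia, 0.0475% in oligodendrocytes, 0.0411% in oligodendrocyte precursors, 0.0131% in endothelial nuclei and 0% in ependymal nuclei and fibroblasts.

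The share of motor neuron nuclei with at least 1 UMI set the precision of the sparse members. It was 100% for Esrrg and Gfra1, 83.6% for Sv2b, 61.2% for Chodl, 49.3% for Esrrb and 13.4% for Mmp9. Motor neuron nuclei were deep, with a median of 53245 UMIs against 6963 in endothelial nuclei, where 22.0% had an Esrrg UMI, 4.79% Sv2b, 0.798% Chodl and 1.20% Mmp9. With each nucleus thinned to 10000 UMIs, which left out none of the motor neuron nuclei and 330 of the 501 endothelial nuclei, the expected shares in motor neurons and endothelial nuclei were 41.7% and 0.307% for Chodl, 77.7% and 6.12% for Sv2b, and 2.61% and 1.12% for Mmp9. By genotype, over nuclei pooled from unequal numbers per mouse and with no test, the thinned share was lower in SOD1G93A nuclei for Chodl (49.5% in WT and 26.8%), Esrrb (28.8% and 10.1%), Sv2b (80.8% and 71.6%), Rbfox3 (84.5% and 79.9%) and Gfra1 (95.7% and 91.4%). It was higher for Spp1 (16.6% and 37.7%), Esrrg (88.6% and 96.2%) and Isl1 (14.0% and 21.0%), and near the same for Stk32a (76.1% and 76.7%) and Mmp9 (2.37% and 3.07%).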

How the data were processed

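Nuclei of 12 hashtagged mice were sequenced in 3 pools. Per the submitters' processing notes, reads were handled with Cell Ranger 3.1 and STAR 2.5.1b against mm10 and nuclei were assigned to mice with Seurat 4.0.3. The authors deposited raw UMI counts per gene and nucleus, with cell types, and these counts were used as deposited. A normalized table and the readme were not used. UMIs were summed per mouse and cell type. Genes were kept with filterByExpr (minimum count 10) and tested with limma-voom 3.58.1 (TMMwsp factors, robust eBayes, group and pool as terms) and Benjamini-Hochberg adjustment at FDR 0.1, over all genes of a type. The pool is a batch in the labels, so it was kept as a block. Alternatives used edgeR 4.0.16, DESeq2 1.42.0, other filters and factors, no pool term, and each mouse left out. Some alternatives were added after seeing the data. On simulated data the test recovered changed genes with known fold changes, all of them larger than that of Sv2b. Recovery of smaller changes was not tested. The members and lists were chosen with earlier results of these data known. All members are named, and of the lists a part, which is not always the genes of highest level. No doublet caller was run. Although 0 motor neuron nuclei reached the marker share of a median oligodendrocyte or astrocyte, this could not exclude doublets. Median UMIs per nucleus were 53245 in motor neurons, 5786 in oligodendrocytes and 5338 in astrocytes, so a doublet could stay under that share.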

Additional observations from a re-analysis of the deposited data

Results flagged for a closer look

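In 26 groups of 6 mice, 3 had 1 mouse far from the others, where chance gives about 1 in 20 groups. Esrrb in motor neurons reached 148 CPM in the female WT mouse of pool A. Spp1 in motor neurons reached 107 in the male WT mouse of pool B and 870 in the female SOD1G93A mouse of pool A.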

How the results depend on the processing

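Leaving out each mouse, the count of genes called in motor neurons ran from 52 to 260 against 157, and in the other neurons from 2 to 10 against 4. For the difference in genotype effect between males and females in motor neurons it ran from 1 to 7 against 3. In motor neurons 72 genes passed with edgeR, 457 with no filter, 51 at a minimum count of 30 and 40 with no replicate block (no pool term). Of the alternatives added after seeing the data, 22 passed without mice of under 3 motor neuron nuclei, 335 without nuclei rich in oligodendrocyte markers, 80 without the nucleus richest in Spp1 and 93 without the nucleus outside cluster 49. In the other neurons 17 passed with DESeq2 and 1 with no replicate block. For the difference in genotype effect between the sexes 24 passed with no filter, 1 at a minimum count of 30 and 5 without the nucleus richest in Spp1. Between females and males 11 passed with DESeq2, 36 with no filter and 3 at a minimum count of 30, against 6. With each mouse left out from 3 to 13 passed between females and males (13 without the WT female in pool B). None of the genes called between females and males was a member. Of members in the other cell types, 2 passed with DESeq2 (Esrrg and Stk32a, both in astrocytes) and 0 with no replicate block, against 1. Leaving out each mouse, the log2 fold change ran from -0.038 to 0.44 for Esrrg and from -0.029 to 0.42 for Gfra1, and both were negative only without the WT female in pool B. That of Stk32a was -0.09 as reported and turned positive without nuclei rich in oligodendrocyte markers (0.0022) and without the nucleus outside cluster 49 (0.015). Thinned to 10000 UMIs, the expected share of motor neuron nuclei with a UMI was 91.2% for Esrrg, 22.4% for Esrrb, 94.2% for Gfra1, 41.7% for Chodl, 2.61% for Mmp9, 23.8% for Spp1, 76.3% for Stk32a, 82.9% for Rbfox3 and 16.4% for Isl1. The cause of these changes was not tested. With 1 to 11 motor neuron nuclei per mouse, the number of nuclei limits every value in motor neurons.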
